A study of Mus musculus with 6 samples.

Results

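Arg1, Arg2 and Nos2 encode the enzymes through which tumour myeloid cells use arginine, and the 3 gene symbols were followed through all 6 libraries of the series, as 3 of 27933 genes measured. The series profiled 4T1 tumours, a transplantable mouse mammary carcinoma, in Balb/c mice by Drop-seq, a droplet method that counts messenger RNA molecules per cell as unique molecular identifiers (UMIs). The 3 FVIO-MHT libraries came from tumours given FVIOs, which the series title describes as ferrimagnetic vortex nanorings used for mild magnetic hyperthermia, at 0.1 mg per cm3 of tumour volume, followed by an alternating magnetic field of 365 kHz for 10 min. The 3 PBS libraries came from tumours of the same line and mouse strain given PBS, and both groups were taken after 24 hours. The labels attach the same account of FVIO injection and field to the PBS samples, whose titles and treatment tags say PBS. Groups were taken from titles and tags, and whether the PBS tumours were placed in the field is unknown. The sources used here do not state the sex or age of the mice, or whether each library is 1 tumour, so p-values cover only how far the libraries of a group lie apart, which may be technical. The 3 genes were taken by symbol, and each was present in all 6 matrices.

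Arginase splits arginine into ornithine and urea. Arginase 1 is the cytosolic form, a liver enzyme that macrophages also make when exposed to interleukin 4 or tumour signals, and arginase 2 is the mitochondrial form. The inducible nitric oxide synthase encoded by Nos2 uses the same arginine to make nitric oxide and citrulline, typically after interferon gamma and bacterial signals. In textbook mouse macrophages Arg1 marks alternative and Nos2 classical activation, and myeloid cells that suppress T cells can carry either.

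The annotated loci lie on GRCm38 (the build also called mm10). Arg1 (ENSMUSG00000019987) is on the minus strand at chr10:24915221-24927484, Arg2 (ENSMUSG00000021125) on the plus strand at chr12:79130777-79156301, and Nos2 (ENSMUSG00000020826) on the plus strand at chr11:78920787-78960254. To show the active sites of the enzymes that neutrophil-like cells expressed, the coding stretches around the manganese-binding motif of arginase 2 and around the haem-binding site of the synthase are given 5′ to 3′ on the coding strand, with the motif codons in capitals. The stretches lie in exon 4 of Arg2 (chr12:79149909-79149971) and exon 6 of Nos2 (chr11:78935458-78935514), from the GENCODE annotation of that build.
Arg2: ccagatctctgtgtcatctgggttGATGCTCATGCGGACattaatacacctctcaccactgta
Nos2: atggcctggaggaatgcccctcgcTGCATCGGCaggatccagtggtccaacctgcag
The longest run shared by the Arg1 and Arg2 transcripts, 1477 and 1428 bases long, was 12 bases. Arg2 overlaps Vti1b and an antisense RNA, both on the other strand, and no source used here gives the use of strand in counting, so reads of overlapping genes cannot be told apart at this locus. Arg2 had 6.18 CPM (the gene's UMIs scaled to a common total of all UMIs) in T and NK-like cells and 5.30 CPM in tumour epithelial-like cells, where Vti1b had 130 CPM and 87.0 CPM.

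Total depth was 706300 to 2207534 UMIs in the FVIO-MHT libraries and 678337 to 2100443 UMIs in the PBS libraries. Barcodes with at least 200 detected genes numbered 332, 1049 and 2325 in the FVIO-MHT libraries and 1080, 1462 and 482 in the PBS libraries, with median depths of 400 to 834 UMIs. Cells were clustered without the 3 genes, and clusters were named from marker lists, which gave 1129 macrophage/monocyte-like cells (clusters 2 and 3) and 756 neutrophil-like cells (clusters 7 and 9) among 6730. FVIO-MHT replicate 1 stood apart: 79.8% of its barcodes were neutrophil-like, 0 were tumour epithelial-like, and the summed level of the 7 tumour epithelial markers was 0.0 CPM. Neutrophil-like cells made up 79.8%, 37.7% and 0.473% of the FVIO-MHT libraries and 6.11%, 0.684% and 1.66% of the PBS libraries. The macrophage/monocyte-like class was mostly cluster 3 in FVIO-MHT replicates 1 and 3 (95.3% and 90.2% of the class) and mostly cluster 2 in FVIO-MHT replicate 2 (90.5%) and in the PBS libraries (82.2% to 90.6%). PBS replicates 2 and 3 shared 33 barcodes among those kept, which held 5 of the 16 Nos2 UMIs of PBS replicate 3 and 1 of the 51 of PBS replicate 2. They held at most 2 UMIs of Arg1 or Arg2 in either library.

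Arg1 was a macrophage/monocyte-like transcript in these tumours. Of its 552 UMIs in kept barcodes, 502 (90.9%) fell in macrophage/monocyte-like cells, 33 in tumour epithelial-like cells and 3 in neutrophil-like cells. The level in the macrophage/monocyte-like class averaged 1089 ± 1125 CPM (SD, n = 6 libraries with at least 20 such cells). It was 6.24 ± 5.91 CPM in neutrophil-like cells (n = 3) and 6.13 ± 7.23 CPM in tumour epithelial-like cells (n = 5). Below the macrophage/monocyte-like class, the order ran through endothelial-like (29.1 ± 22.9 CPM, n = 2), fibroblast-like (15.9 ± 19.0 CPM, n = 4) and T and NK-like cells (11.3 ± 22.6 CPM, n = 4), and the ranges of these classes overlapped. B-cell-like and keratinocyte-like cells held 0 Arg1 UMIs, and the 65 pericyte-like cells held 1, in FVIO-MHT replicate 2.

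**Figure D1:**
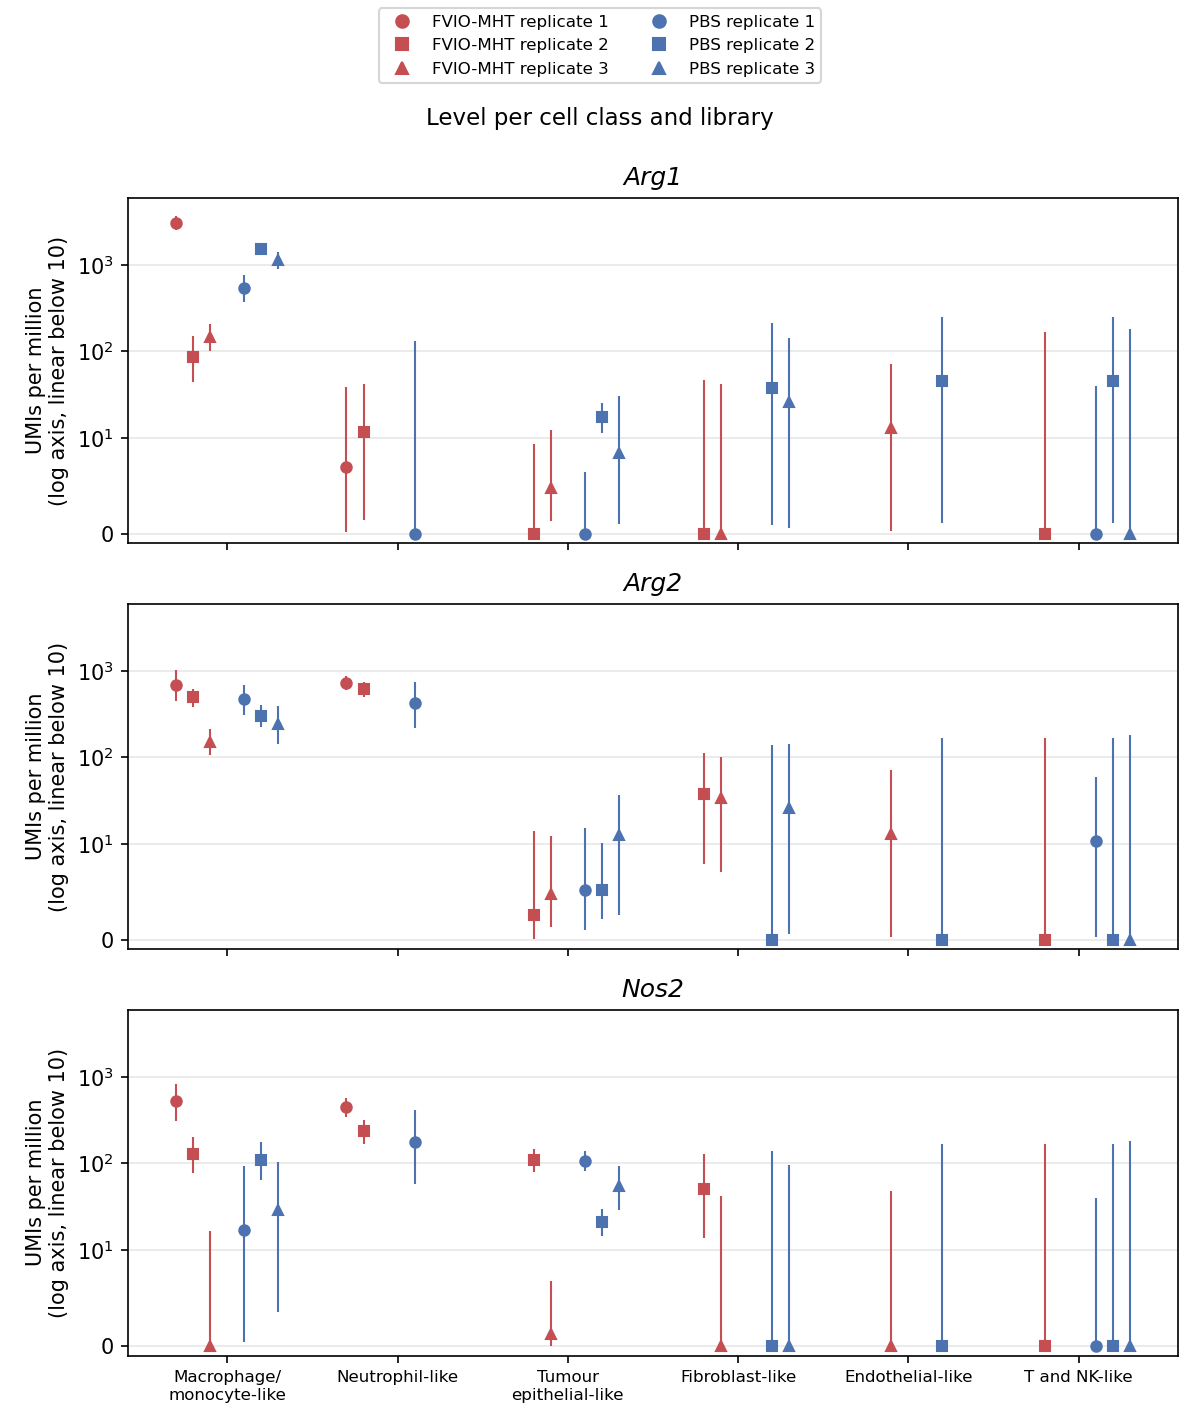
Level of Arg1, Arg2 and Nos2 in CPM (vertical axis, logarithmic above 10) in 6 cell classes, 1 point for each library that has 20 or more such cells, FVIO-MHT in red and PBS in blue, with 95% Poisson intervals of counting error. Arg1 stands high in macrophage/monocyte-like cells, between 86.2 and 3069 CPM, and Arg2 and Nos2 also in neutrophil-like cells.

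Within the macrophage/monocyte-like class, Arg1 ranged widely between libraries. It had 3069, 86.2 and 148 CPM in FVIO-MHT replicates 1, 2 and 3 (106, 12 and 33 molecules), against 539, 1547 and 1147 CPM in PBS replicates 1, 2 and 3 (32, 240 and 79 molecules). One FVIO-MHT library was above every PBS library and the other two were below every PBS library. The FVIO-MHT replicate 1 level comes from a class with 15550 CPM of neutrophil markers. At a finer clustering, 61 cells with 106 of the 107 Arg1 UMIs of that library fell in a cluster that could not be named macrophage/monocyte-like, because neutrophil markers were among its leading genes. The share of these cells with an Arg1 UMI was 67.2%, 3.15% and 4.70% in the FVIO-MHT libraries and 16.8%, 45.0% and 23.7% in the PBS libraries. In T and NK-like cells, which served as a background, 1 of 372 cells had an Arg1 UMI (0.269%, 95% Clopper-Pearson interval 0.00681% to 1.49%) at a median depth of 348 UMIs, against 448 UMIs in the macrophage/monocyte-like class. Of these 372 cells, 234 came from PBS replicate 1 and none from FVIO-MHT replicate 1. In FVIO-MHT replicates 2 and 3 the background was 0 of 45 and 0 of 11 cells, which allow up to 6.67% and 27.3%, and in PBS replicate 2 it was 1 of 40 cells (2.5%). The shares of 3.15% and 4.70% in FVIO-MHT replicates 2 and 3 lie under these bounds. So few cells leave the bounds wide, so this background cannot place the shares. In the larger tumour epithelial-like class of the same libraries, 0 of 213 and 4 of 445 cells had an Arg1 UMI. Of the 396 neutrophil-like cells of FVIO-MHT replicate 2, 2 had an Arg1 UMI. After each cell was thinned to 300 UMIs, which left out 213 of the 1129 macrophage/monocyte-like cells as too shallow, the shares were 48.3%, 2.21% and 2.96% in the FVIO-MHT libraries and 13.9%, 35.2% and 20.3% in the PBS libraries.

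Arg2 was shared between neutrophil-like and macrophage/monocyte-like cells. Of its 494 UMIs, 227 (46.0%) fell in neutrophil-like cells and 219 (44.3%) in macrophage/monocyte-like cells. The level averaged 593 ± 152 CPM in neutrophil-like cells (SD, n = 3) and 394 ± 198 CPM in macrophage/monocyte-like cells (n = 6). In neutrophil-like cells it was 731 and 617 CPM in FVIO-MHT replicates 1 and 2 (105 UMIs each), against 429 CPM in PBS replicate 1 (12 UMIs). The other libraries held 8 to 11 neutrophil-like cells each, too few for a level. In macrophage/monocyte-like cells Arg2 had 695, 496 and 152 CPM in FVIO-MHT replicates 1, 2 and 3 (24, 69 and 34 UMIs), against 472, 303 and 247 CPM in PBS replicates 1, 2 and 3 (28, 47 and 17 UMIs). The FVIO-MHT values spanned those of PBS, and the lowest was FVIO-MHT replicate 3. The next named class, fibroblast-like cells, had 24.6 ± 17.2 CPM (n = 4), and in T and NK-like cells 1 of 372 cells had an Arg2 UMI.

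Nos2 was also found in tumour cells. Of its 328 UMIs, 152 (46.3%) fell in tumour epithelial-like cells, 109 (33.2%) in neutrophil-like cells and 56 (17.1%) in macrophage/monocyte-like cells. The level averaged 287 ± 141 CPM in neutrophil-like cells (SD, n = 3), 134 ± 197 CPM in macrophage/monocyte-like cells (n = 6) and 58.9 ± 49.3 CPM in tumour epithelial-like cells (n = 5). The ranges of the neutrophil-like class (179 to 446 CPM) and the tumour epithelial-like class (1.20 to 109 CPM) did not overlap, while that of the macrophage/monocyte-like class (0 to 521 CPM) overlapped both. The unnamed cluster, led by Hbb-bs and keratins, had 107 ± 117 CPM (n = 3), from 5 UMIs. Of 372 T and NK-like cells, 0 had a Nos2 UMI, which allows a share of up to 0.806%.

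Nos2 was close to absent from FVIO-MHT replicate 3 as a whole. It had 1 UMI in 1747110, or 0.572 CPM, in that library, against 453 and 122 CPM in FVIO-MHT replicates 1 and 2 and 77.2, 27.5 and 34.0 CPM in PBS replicates 1, 2 and 3. In macrophage/monocyte-like cells Nos2 had 521, 129 and 0 CPM in FVIO-MHT replicates 1, 2 and 3 (18, 18 and 0 UMIs), against 16.8, 110 and 29.0 CPM in PBS replicates 1, 2 and 3 (1, 17 and 2 UMIs). A count of 0 in the 447 such cells of FVIO-MHT replicate 3 allows up to 13.4 CPM, while that in its 11 neutrophil-like cells allows up to 777 CPM. In neutrophil-like cells it had 446 and 235 CPM in FVIO-MHT replicates 1 and 2 (64 and 40 UMIs), against 179 CPM in PBS replicate 1 (5 UMIs).

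**Figure D2:**
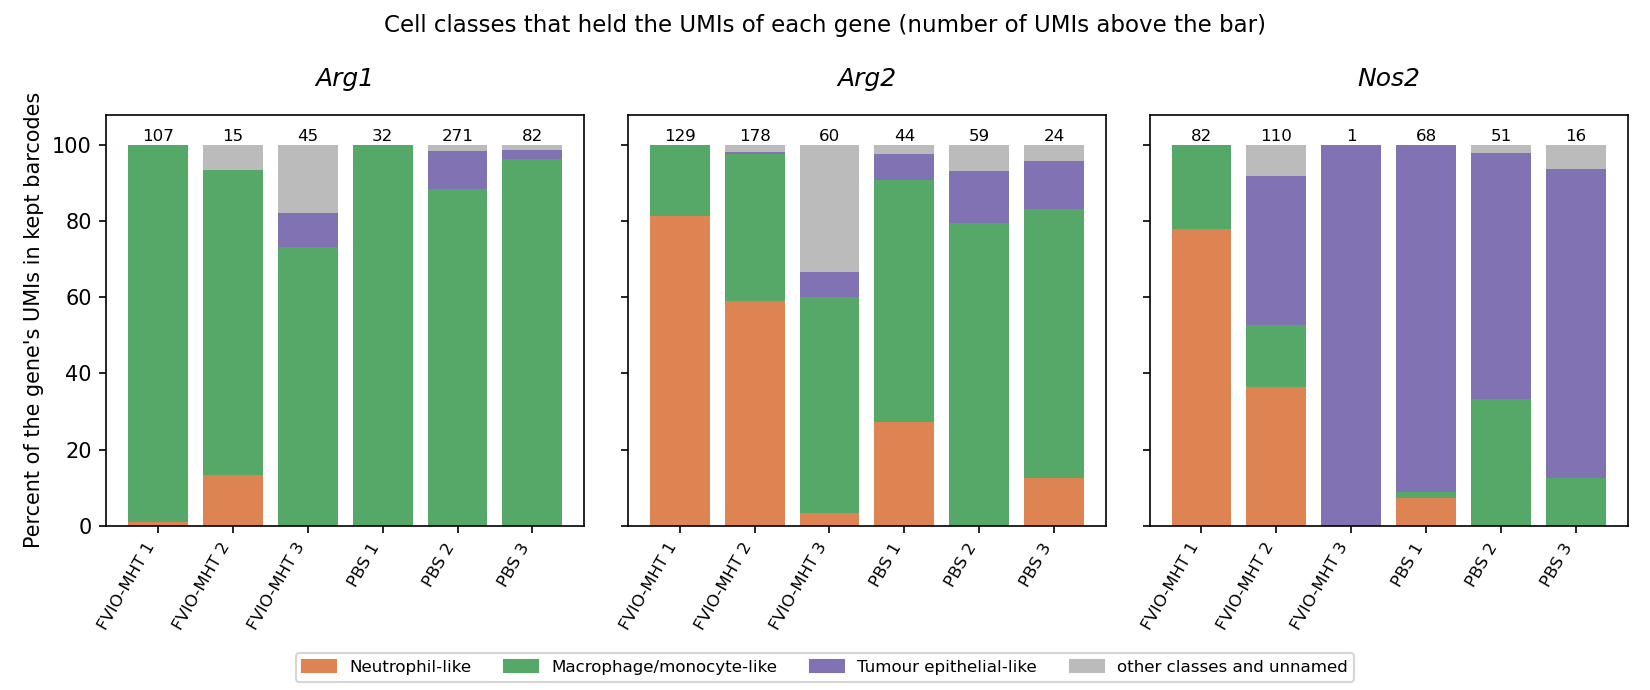
Percent of the UMIs of Arg1, Arg2 and Nos2 that fell in each cell class (vertical axis), 1 bar per library, with the number of UMIs of the gene above the bar. Arg1 bars are mostly macrophage/monocyte-like, Arg2 bars are mostly neutrophil-like in FVIO-MHT replicates 1 and 2, and Nos2 bars are mostly tumour epithelial-like in the PBS libraries.

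The class that supplied each transcript differed between libraries. Macrophage/monocyte-like cells held 73.3% to 99.1% of the Arg1 UMIs in the FVIO-MHT libraries and 88.6% to 100% in the PBS libraries. Neutrophil-like cells held, of the Arg2 UMIs, 81.4%, 59.0% and 3.33% in FVIO-MHT replicates 1, 2 and 3 and 27.3%, 0% and 12.5% in PBS replicates 1, 2 and 3. Tumour epithelial-like cells held, of the Nos2 UMIs, 0%, 39.1% and 100% in FVIO-MHT replicates 1, 2 and 3 (1 of 1 UMI in the last), against 91.2%, 64.7% and 81.2% in PBS replicates 1, 2 and 3.

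Neutrophil-like and macrophage/monocyte-like cells of the same library were compared in the 3 libraries that held at least 20 of each, FVIO-MHT replicates 1 and 2 and PBS replicate 1. Arg1 was lower in neutrophil-like cells in all 3, with 6.96, 11.8 and 0 CPM (a count of 0 that allows up to 107 CPM), against 3069, 86.2 and 539 CPM in the macrophage/monocyte-like cells of the same libraries. The log2 fold change was -6.32 ± 0.82 (SE; adjusted p = 8.13e-06 by edgeR's quasi-likelihood test with library as a block). This call could not be tested without FVIO-MHT replicate 1 or with classes from finer clusters, where Arg1 did not pass the filter on low counts. Summed over the 3 libraries, 3 UMIs in neutrophil-like cells and 150 in macrophage/monocyte-like cells gave a ratio of rates of 0.0136, with a counting interval of 0.00278 to 0.0406. Arg2 and Nos2 did not pass: the log2 fold change was 0.35 ± 0.38 for Arg2 (adjusted p = 0.523 by edgeR) and 0.94 ± 0.50 for Nos2 (adjusted p = 0.162 by edgeR). Nos2 passed when the classes came from finer clusters, which leaves out FVIO-MHT replicate 1 (1.80 ± 0.57, adjusted p = 0.00703 by edgeR) or from a marker gate on single cells (1.38 ± 0.52, adjusted p = 0.0359 by edgeR). Of all 2445 genes tested, 28.5% passed in this comparison, 15.3% as lower. The classes were clustered from the same cells, though without the 3 genes, so these tests bear only on how steady a difference was over libraries. The fit on all 3 libraries had 2 residual degrees of freedom, so it shows this only weakly.

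Set against the non-myeloid cells of their own library, macrophage/monocyte-like cells were higher in Arg1 and Arg2 in each of the 5 libraries that held at least 20 of both. Arg1 was 6.52 ± 0.38 higher on the log2 scale (adjusted p = 8.28e-11 by edgeR) and Arg2 5.41 ± 0.32 higher (adjusted p = 9.2e-11 by edgeR). Nos2 was 0.71 ± 0.49 higher (adjusted p = 0.262 by edgeR), and 39.8% of the 7032 genes tested passed, 18.2% as higher. For Nos2 the result rested on single libraries: it was 1.24 ± 0.47 without PBS replicate 1 (adjusted p = 0.0397 by edgeR) and -0.13 ± 0.54 without PBS replicate 2. FVIO-MHT replicate 1 had too few non-myeloid cells and is not in this comparison. Neutrophil-like cells, set against non-myeloid cells in FVIO-MHT replicate 2 and PBS replicate 1, were higher in Arg2 (log2 fold change 6.64 ± 0.83, adjusted p = 3.19e-13 by edgeR). This fit had 2 libraries and 1 residual degree of freedom, so it says little of how steady a difference was over libraries. Nos2 was 1.69 ± 0.71 higher there (adjusted p = 0.0842 by edgeR), and Arg1 did not pass the filter on low counts. Nos2 passed there with relative log expression (RLE) scaling (1.53 ± 0.55, adjusted p = 0.0242 by edgeR), with a minimum of 100 genes (1.82) and with the marker gate (2.53). Of 6106 genes 15.4% passed, 9.81% as higher and 5.62% as lower, or 599 higher and 343 lower. With that scaling in place of TMM they were 751 higher and 1053 lower, and the median of all genes was -0.65 on the log2 scale in place of -0.43.

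At a finer clustering, levels summed over all libraries were read in each myeloid cluster, and different libraries supplied the clusters. Cluster 21, led by Cxcl3, Pf4, Saa3 and Mmp12, had 2690 CPM of Arg1 and a UMI in 59.8% of 87 cells. These cells were left unnamed, because their leading genes held more neutrophil than macrophage/monocyte markers. FVIO-MHT replicate 1 gave 61 of the 87 cells and 106 of the 120 Arg1 UMIs. Every other library held 2 to 10 cells of it. Cluster 14, led by C1qc and Mmp12, had 1179 CPM of Arg1, and 125 of its 197 cells came from PBS replicate 2. Cluster 6, led by Cd14 and Ccr2, had 419 CPM. Cluster 7, led by C1qc, Pf4 and Apoe, had 244 CPM, and 307 of its 360 cells came from FVIO-MHT replicate 3. Cluster 18, led by Ccl12 and the monocyte marker Ly6c2, had 132 CPM, and 99 of its cells came from the same library. The order of these sums was not that within PBS replicate 2, where Arg1 was 1858 CPM in cluster 7 (17 cells), 1567 CPM in cluster 14 (125 cells), 1362 CPM in cluster 6 (56 cells) and 842 CPM in cluster 21 (2 cells). Cluster 21 had 784 CPM of Arg2 and 516 CPM of Nos2, beside 672 and 489 CPM in the neutrophil-like cluster 10, and the counting intervals of these clusters overlapped for both genes. Clusters 6, 7, 14 and 18 had 53.0, 11.1, 96.3 and 0 CPM of Nos2.

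**Figure D3:**
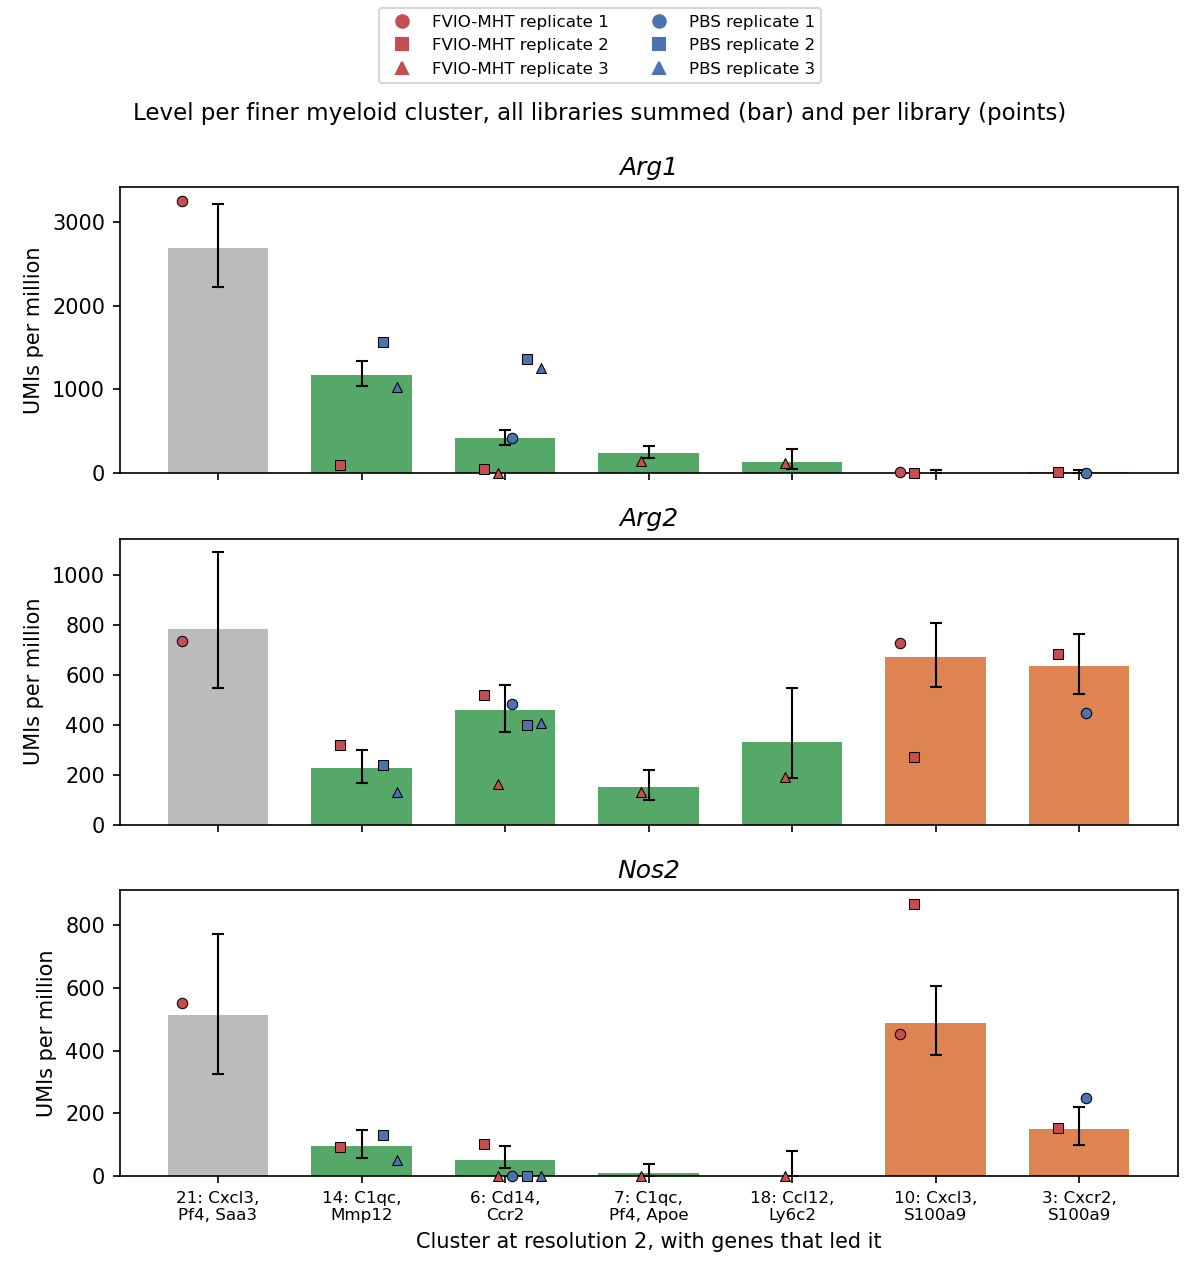
Level of Arg1, Arg2 and Nos2 in CPM (vertical axes, each from 0) in 7 finer myeloid clusters. Bars sum all libraries, with 95% Poisson intervals of counting error (green macrophage/monocyte-like, orange neutrophil-like, grey unnamed), and points are libraries with at least 20 cells of the cluster. Within clusters 14 and 6 the FVIO-MHT points of Arg1 lie below all PBS points.

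Inside matching clusters, too, FVIO-MHT replicates 2 and 3 had less Arg1 than every PBS library with enough cells. In cluster 6 it was 46.3 and 0 CPM in FVIO-MHT replicates 2 and 3 (180 and 33 cells), against 422, 1362 and 1263 CPM in PBS replicates 1, 2 and 3 (66, 56 and 52 cells), and the count of 0 in FVIO-MHT replicate 3 allows up to 242 CPM. In cluster 14 it was 91.6 CPM in FVIO-MHT replicate 2 (22 cells), against 1567 and 1035 CPM in PBS replicates 2 and 3 (125 and 29 cells). FVIO-MHT replicate 1 held 3 cells of cluster 6 and no cells of cluster 14 and has no level there. Arg2 in cluster 6 was 519 and 161 CPM in FVIO-MHT replicates 2 and 3, against 483, 400 and 408 CPM in PBS replicates 1, 2 and 3, so FVIO-MHT values lay on both sides of PBS.

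Macrophages are often split by C1q, a complement protein made by many tissue macrophages, and by the elastase Mmp12, and Arg1 was read on both sides of each split. Macrophage/monocyte-like cells with a C1qa, C1qb or C1qc UMI had 966, 48.8 and 84.7 CPM of Arg1 in FVIO-MHT replicates 1, 2 and 3 and 464, 1492 and 1118 CPM in PBS replicates 1, 2 and 3. Those without such a UMI had 3277, 102 and 218 CPM in the FVIO-MHT libraries and 597, 1755 and 1164 CPM in the PBS libraries. Arg1 was thus lower in C1q-positive cells in all 6 libraries, with a ratio between 0.295 and 0.961, and the counting interval of the ratio lay below 1 in FVIO-MHT replicates 1 and 3 (0.0598 to 0.886, on 5 cells with C1q, and 0.165 to 0.849). Cells with an Mmp12 UMI had 2307, 94.8 and 229 CPM of Arg1 in the FVIO-MHT libraries and 632, 1750 and 1699 CPM in the PBS libraries. Those without had 3291, 85.5 and 144 CPM in the FVIO-MHT libraries and 470, 1417 and 1012 CPM in the PBS libraries, and the counting interval of the ratio included 1 in every library. Cells with a marker UMI were deeper than those without in all 6 libraries for both markers, and a cell without a UMI may still express the marker.

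Among neutrophil-like cells, Nos2 was higher in cluster 9, led by Cxcl3, Retnlg and Ccl3, than in cluster 7, led by Cxcr2 and S100a8. Both clusters had enough cells in FVIO-MHT replicate 2 only, where Nos2 had 822 CPM in cluster 9 (16 UMIs in 41 cells) and 159 CPM in cluster 7 (24 UMIs in 355 cells), a ratio of 5.16 with a counting interval of 2.56 to 10.1. Arg2 ran the other way in that library, with 308 CPM in cluster 9 and 657 CPM in cluster 7, but the interval of its ratio, 0.168 to 1.06, included 1. Cluster 9 held 261 of the 265 neutrophil-like cells of FVIO-MHT replicate 1 and 10 of the 66 of PBS replicate 1, so a difference between groups in this class cannot be told apart from its make-up.

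In tumour epithelial-like cells, 93 of the 152 Nos2 UMIs fell in cluster 5, which was led by Cxcl5, Wfdc2 and Lcn2. Nos2 was 146 CPM in cluster 5 of FVIO-MHT replicate 2 (36 UMIs in 130 cells), against 112 and 44.9 CPM in PBS replicates 1 and 2 (48 and 3 UMIs in 319 and 47 cells). Over the other tumour epithelial-like clusters of the same library the ratio was 3.08 in FVIO-MHT replicate 2 (counting interval 1.35 to 8.20), and 1.17 and 2.22 in PBS replicates 1 and 2 (0.636 to 2.30 and 0.434 to 7.14). The 15 cells of cluster 5 in PBS replicate 3 held 6 UMIs, a ratio of 7.31 (2.03 to 25.4). The interval of the ratio lay above 1 in FVIO-MHT replicate 2 and PBS replicate 3 and included 1 in PBS replicates 1 and 2. Arg1 and Arg2 had 33 and 19 UMIs in all 2332 tumour epithelial-like cells.

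The 3 genes were seldom detected in the same cell, and about as often as their separate frequencies gave. In the macrophage/monocyte-like class, 45 of 1129 cells had UMIs of both Arg1 and Arg2, where the product of the shares within each library gave 38.2. There were 12, 2 and 4 such cells in FVIO-MHT replicates 1, 2 and 3, where the shares gave 10.8, 1.64 and 1.36, and 5, 19 and 3 cells in PBS replicates 1, 2 and 3, where they gave 3.87, 18.02 and 2.60. Arg1 and Nos2 were together in 18 cells (14.8 from the shares) and Arg2 and Nos2 in 8 cells (9.03 from the shares). All 3 were detected in 5 cells. Of the 41 macrophage/monocyte-like cells with a Nos2 UMI, 18 also had one of Arg1, of which FVIO-MHT replicate 1 gave 7 and PBS replicate 2 gave 8. In neutrophil-like cells Arg2 and Nos2 were together in 16 of 756 cells, where the shares gave 19.4.

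**Figure D4:**
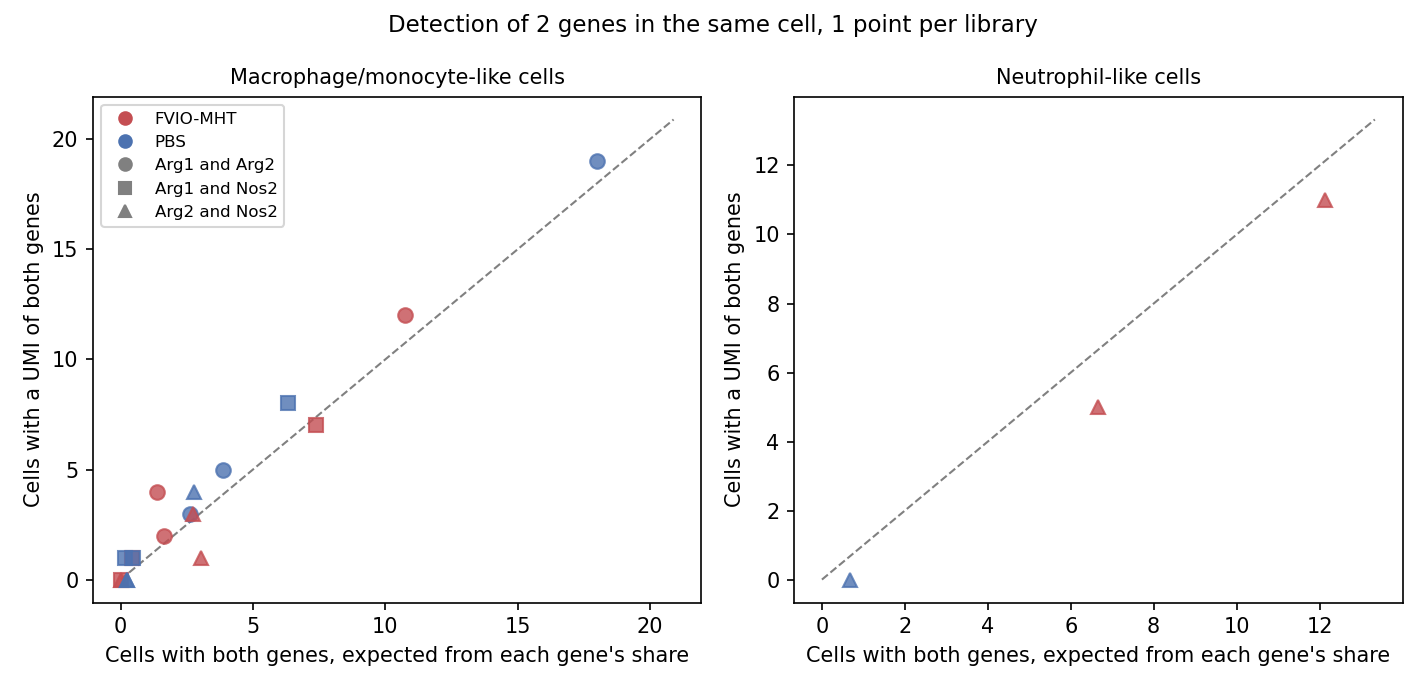
Number of cells with UMIs of 2 genes (vertical axis) against the number that each gene's share gives in the same class and library (horizontal axis), 1 point for each library that has 20 or more such cells, FVIO-MHT in red and PBS in blue, with a dashed line of equality. Points lie near the line in both classes, and the largest is 19 cells with Arg1 and Arg2 in PBS replicate 2.

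Macrophage/monocyte-like cells with both arginases were deeper, with a median of 725 UMIs against 448 UMIs in the class, and depth raises the chance of seeing any 2 genes together. No doublet caller was run, so cells with both transcripts include any pair of cells that shared a droplet. Across all classes, Arg1 and Arg2 were together in 47 cells where shares over whole libraries gave 19.7.

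No difference between FVIO-MHT and PBS passed edgeR's test for any of the 3 genes. In whole libraries, Arg1 had 590, 16.7 and 25.8 CPM in FVIO-MHT replicates 1, 2 and 3, against 36.3, 146 and 174 CPM in PBS replicates 1, 2 and 3 (log2 fold change 1.47 ± 1.40, adjusted p = 0.943 by edgeR). Arg2 had 712, 198 and 34.3 CPM in the FVIO-MHT libraries, against 49.97, 31.8 and 51.0 CPM in the PBS libraries (3.41 ± 1.13, adjusted p = 0.878 by edgeR). Nos2 was 2.62 ± 1.53 higher on the log2 scale in FVIO-MHT libraries (adjusted p = 0.892 by edgeR). All 3 were highest in FVIO-MHT replicate 1, which held almost only neutrophil-like and macrophage/monocyte-like cells. Arg2 and Nos2 in whole libraries were highest in FVIO-MHT replicates 1 and 2, which also had the largest shares of neutrophil-like cells. The part of that share was not tested. Of the 110 Nos2 UMIs of FVIO-MHT replicate 2, 43 fell in tumour epithelial-like cells and 40 in neutrophil-like cells. In PBS replicate 1, 62 of 68 fell in tumour epithelial-like cells. Of 8603 genes, 0.0% passed with edgeR. At an unadjusted p under 0.05, edgeR gave 451 genes, and DESeq2 called 134, among them Arg2 (3.57, adjusted p = 0.0112 by DESeq2).

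In macrophage/monocyte-like cells the log2 fold change was 0.11 ± 1.08 for Arg1 (adjusted p = 0.998 by edgeR), 0.41 ± 0.56 for Arg2 (adjusted p = 0.984 by edgeR) and 1.48 ± 1.27 for Nos2 (adjusted p = 0.984 by edgeR). Of 2105 genes, 0.0% passed with edgeR, which gave 88 at an unadjusted p under 0.05, and DESeq2 called 2. Without FVIO-MHT replicate 1, Arg1 was -3.17 (adjusted p = 0.249 by edgeR), Arg2 -0.11 and Nos2 -0.10. The sign of Arg1 also turned without PBS replicate 1 (-0.25), with no filter on low counts (-0.29), with the marker gate (-0.28) and with the replicate number as a block (-1.89). That library's cells of this class had 15550 CPM of the 13 neutrophil markers found, against 5001 and 1146 CPM in FVIO-MHT replicates 2 and 3 and 877 to 4160 CPM in the PBS libraries, and the part of these markers in its levels was not tested. Its neutrophil-like cells had 1 Arg1 UMI in 143612. In cluster 2 alone, which leaves out FVIO-MHT replicate 1 and was chosen after the data were seen, Arg1 was -4.68 (adjusted p = 0.187 by edgeR). Without the barcodes shared by libraries the fold changes were 0.06, 0.39 and 1.45 for Arg1, Arg2 and Nos2.

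**Figure D5:**
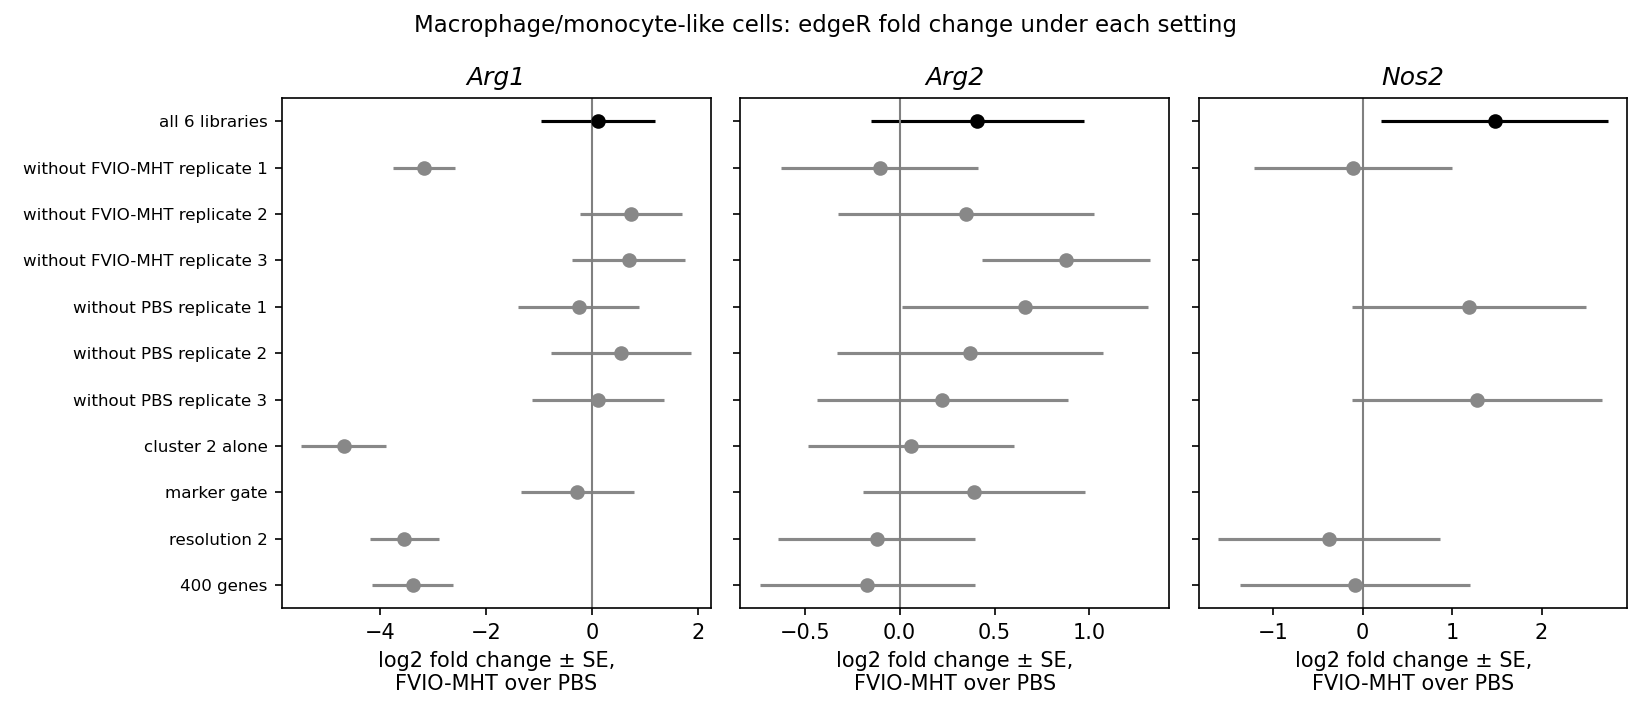
Log2 fold change of FVIO-MHT over PBS with its standard error (horizontal axes, which differ in scale) for Arg1, Arg2 and Nos2 in macrophage/monocyte-like cells, with all 6 libraries in black and under other settings in grey. A gap in the Nos2 panel means that the gene did not pass the filter on low counts. Arg1 is near 0 with all libraries (0.11) and -3.17 without FVIO-MHT replicate 1.

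In neutrophil-like cells, with 2 FVIO-MHT libraries and 1 PBS library, which is assumed to vary as the others do, Arg2 was 0.88 ± 0.94 and Nos2 1.19 ± 1.06 higher on the log2 scale in FVIO-MHT (adjusted p = 0.995 each by edgeR). Of 2632 genes, 0.0% passed with edgeR, which gave 66 at an unadjusted p under 0.05, DESeq2 called 1, and Arg1 did not pass the filter on low counts.

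Other genes were read in 10 lists. They covered arginine transport and synthesis, ornithine use, support of nitric oxide synthesis and signals that induce Arg1 or Nos2. The rest covered other myeloid suppressive genes, alternative and classical activation, and hypoxia. Between FVIO-MHT and PBS, 0 genes of any list passed with edgeR in whole libraries, in macrophage/monocyte-like cells or in neutrophil-like cells. In whole libraries the list medians ran between 0.00 and 2.23 on the log2 scale, beside -0.04 for all genes, and the highest was that of other myeloid suppressive genes, 9 of whose 11 tested members were higher in FVIO-MHT. It was led by Clec4e, a lectin receptor of neutrophils and macrophages (5.28 ± 1.58, adjusted p = 0.878 by edgeR), Cybb, the core of the phagocyte oxidase (2.23 ± 0.78), and S100a9, a neutrophil alarmin (5.74 ± 2.02). Clec4e and S100a9 are also on the neutrophil marker list, whose summed level was 100300, 15580 and 571 CPM in FVIO-MHT replicates 1, 2 and 3, against 3227, 612 and 892 CPM in PBS replicates 1, 2 and 3. In macrophage/monocyte-like cells the medians ran between -0.55 and 0.51, beside 0.01 for all genes, and the lowest was that of alternative activation, with Mrc1, the mannose receptor, at -0.99 ± 0.44 (adjusted p = 0.984 by edgeR). Mrc1 had 434, 244 and 537 CPM in these cells in FVIO-MHT replicates 1, 2 and 3, against 842, 799 and 929 CPM in PBS replicates 1, 2 and 3, so the FVIO-MHT values were all below those of PBS. Slc7a2, an arginine importer of activated macrophages, had 318, 86.2 and 8.95 CPM in the FVIO-MHT libraries, against 152, 142 and 58.1 CPM in the PBS libraries. Slc7a2 and Arg1 were both highest in FVIO-MHT replicate 1, but the order of the other libraries differed between them. PBS replicate 3, with 1147 CPM of Arg1, had less Slc7a2 than FVIO-MHT replicate 2, with 86.2 CPM of Arg1.

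Between classes, list genes were read only where they took no part in the clustering. Against non-myeloid cells, macrophage/monocyte-like cells were higher in 2 of 3 arginine transport genes tested, Slc3a2 (log2 fold change 1.64 ± 0.22, adjusted p = 5.64e-06 by edgeR) and Slc7a7 (2.62 ± 0.68), which form a transporter of basic amino acids. Ass1, which remakes arginine from the citrulline that nitric oxide synthesis releases, was 2.52 ± 0.35 higher (adjusted p = 1.23e-05 by edgeR). Of 9 genes of ornithine use, 1 was higher, the polyamine acetylase Sat1 (1.18 ± 0.23), and 3 were lower, Sms, Amd1 and Oaz2 (-1.48 ± 0.36, -1.86 ± 0.50 and -1.54 ± 0.49). The list's median was -0.62, beside -0.23 for all 6192 such genes, of which 13.5% were called higher and 21.7% lower. Of the genes that assist nitric oxide synthesis, Gch1, which starts the synthesis of the cofactor tetrahydrobiopterin, was higher (2.20 ± 0.38) and Ddah2 was lower (-2.73 ± 0.56).

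Of 8 genes for signals that induce Arg1, 5 were higher and 1 was lower in macrophage/monocyte-like than in non-myeloid cells, beside 13.5% and 21.7% of all such genes, with the higher ones led by the interleukin 4 receptor gene Il4ra (2.28 ± 0.26, adjusted p = 1.22e-06 by edgeR), Nfil3 (2.26 ± 0.33) and Cebpb (1.72 ± 0.25). Of 10 genes for signals that induce Nos2, 6 were higher and 0 lower, led by the Toll-like receptors Tlr2 (3.44 ± 0.29, adjusted p = 1.28e-08 by edgeR) and Tlr4 (2.87 ± 0.49). Of 9 hypoxia genes, 3 were higher and 2 lower, with Vegfa at 2.20 ± 0.23 and Car9, a carbonic anhydrase, at -3.16 ± 0.47. Of 4 other suppressive genes 2 were higher, Vegfa and Tgfb1, and 1 was lower, Ptges.

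Neutrophil-like cells differed from macrophage/monocyte-like cells of the same libraries in the same lists. Ass1 was at 0 in the neutrophil-like sums of FVIO-MHT replicates 1 and 2 and PBS replicate 1, where a count of 0 allows up to 20.9, 17.6 and 107 CPM. It had 0, 259 and 202 CPM in the macrophage/monocyte-like cells of the same libraries, so no difference was detectable in FVIO-MHT replicate 1 at this depth. Of 8 genes for signals that induce Arg1, 3 were higher in neutrophil-like cells, Cebpb (1.24 ± 0.31), Il13ra1 (1.35 ± 0.47) and Stat6 (1.35 ± 0.48), and 1 was lower, Klf4 (-3.11 ± 0.66, adjusted p = 0.00148 by edgeR). Of 9 genes for signals that induce Nos2, 2 were higher, Irf1 (1.91 ± 0.50) and Tnfrsf1a (1.81 ± 0.60). Of 3 genes of ornithine use, Azin1 was lower (-1.36 ± 0.46). Of 8 hypoxia genes, Bnip3 was higher (1.29 ± 0.44) and Ndrg1 and Vegfa were lower (-1.37 ± 0.39 and -1.30 ± 0.41). In this comparison 22.2% of 1999 genes outside the clustering passed, 7.8% as higher and 14.4% as lower. Against non-myeloid cells, neutrophil-like cells were higher in Gch1 (2.68 ± 0.78, adjusted p = 0.00725 by edgeR), in 2 of 8 genes for signals that induce Arg1, with Klf4 lower (-2.44 ± 0.72), and in 4 of 10 for Nos2 with 0 lower, where 10.7% of 5421 genes passed, 5.11% as higher and 5.63% as lower, and 0 of 10 genes of ornithine use passed (edgeR).

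The 8 genes most like each enzyme gene across cell classes were not the same, except that Slc7a11 was among those of both Arg2 and Nos2. Likeness was the Pearson correlation of log2(CPM + 50) over 32 sums of 1 class in 1 library, from 10 classes, among 3792 genes that averaged at least 50 CPM, and sums share libraries and depth, so it is a description. The 8 genes most like Arg1 were Mmp12 (r = 0.94), Mrc1 (r = 0.87), Pf4, Msr1, F13a1, Ms4a7, Fcgr2b and Sirpa (r = 0.81), all macrophage transcripts. The 8 most like Arg2 were Slc7a11, a cystine importer (r = 0.96), the inflammasome sensor Nlrp3 (r = 0.95), Bst1, Pirb, Itgam, Il1rn, Plin2 and Alox5ap (r = 0.93). The 8 most like Nos2 were Ero1l (r = 0.85), Bnip3 (r = 0.85), Cxcl3, Mmp8, Slc7a11, Igsf6, Slc2a1 and Pygl (r = 0.81), of which Ero1l, Bnip3 and Slc2a1 are known hypoxia-inducible genes. All of these genes but Sirpa, Bnip3 and Slc2a1 took part in the clustering. Mmp12, Mrc1, F13a1, Ms4a7, Cxcl3 and Mmp8 are also on the marker lists that named the classes. Their likeness over class sums was thus partly set by how the classes were made. Among Arg1, Arg2 and Nos2 themselves, r was 0.75 for Arg2 with Nos2, 0.61 for Arg1 with Arg2 and 0.36 for Arg1 with Nos2.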

How the data were processed

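Values are the authors' deposited counts, whole numbers of UMIs for each gene in each of 5000 barcodes a library. The submitters' processing notes name STAR 2.7.2b and mm10. How reads were counted, on which strand and annotation, and how barcodes were picked was stated in no source used here. From these counts, 65 rows that repeat a gene were dropped. Barcodes with at least 200 genes were kept, and a limit of 20% mitochondrial UMIs removed 0. Clustering (scanpy 1.11.5, leidenalg 0.10.2) used 1997 variable genes without Arg1, Arg2 and Nos2, 30 components, 15 neighbours and resolution 1 (17 clusters) or 2 (26 clusters). A name needed at least 3 markers, each in 5% of cells and 2-fold up, and a mean log2 ratio over the class's markers that reached 2-fold. It was withheld where another class had more markers among the 10 leading genes of the cluster. The marker gate asked for at least 3 UMIs from at least 2 markers of a class in a cell. Non-myeloid cells are the named classes other than neutrophil-like, macrophage/monocyte-like and osteoclast-like. No doublet caller was run. Counts were summed per library and class with at least 20 cells and tested with edgeR 4.0.16 (TMM, filterByExpr, quasi-likelihood, Benjamini-Hochberg, threshold 0.05, R 4.3.3), with DESeq2 1.42.0 as an alternative. The test was checked on counts simulated with the same spread for all genes, which does not show its power at the spread of these data. CPM scales a gene's UMIs to the UMI total of the class or library; intervals are 95% and, like floors (3 counts), cover counting error only. From each list, up to 5 genes past the threshold with the lowest p, or up to 3 where none passed, were eligible to be named, and up to 8 genes by likeness; some items are not reported here. The members, lists and markers were chosen with earlier results of these data known.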

Additional observations from a re-analysis of the deposited data

Results flagged for a closer look

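Barcodes with fewer than 200 detected genes were used by no comparison except those run with a lower gene minimum. These barcodes carried Arg2 and Nos2 above every PBS library in both neutrophil-rich FVIO-MHT libraries. In those barcodes Arg2 had 724, 440.0 and 132.5 CPM in FVIO-MHT replicates 1, 2 and 3, against a highest PBS value of 160 CPM. Nos2 had 263, 145 and 2.17 CPM in FVIO-MHT replicates 1, 2 and 3, against a highest PBS value of 106 CPM. FVIO-MHT replicate 3 was thus below the highest PBS library for both genes. Arg1 in those barcodes had 248, 18.3 and 39.1 CPM in FVIO-MHT replicates 1, 2 and 3, against 33.9, 569 and 376 CPM in PBS replicates 1, 2 and 3. The source of this RNA was not tested.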

How the results depend on the processing

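Arg1 stayed lower in neutrophil-like than in macrophage/monocyte-like cells, past the threshold, under each of 8 alternatives that kept the gene, and it was filtered out at resolution 2 and without FVIO-MHT replicate 1. For FVIO-MHT over PBS in whole libraries, leaving out 1 library at a time gave Arg1 -2.49 to 2.05 on the log2 scale. In macrophage/monocyte-like cells it gave Arg1 -3.17 to 0.73 (negative without FVIO-MHT replicate 1 or PBS replicate 1), Arg2 -0.11 to 0.87 and Nos2 -0.10 to 1.28. A minimum of 400 genes and resolution 2, which both leave FVIO-MHT replicate 1 out of that class, gave -3.38 and -3.54 for Arg1, -0.17 and -0.12 for Arg2 and -0.083 and -0.37 for Nos2. Arg1 there was -0.29 with no filter on low counts, -0.28 with the marker gate and -4.68 in cluster 2 alone, and the cause was not tested. Whether the replicate numbers pair the samples was stated in no source used here. Same-numbered libraries correlated at 0.156, 0.0186 and -0.0846 (whole), beside -0.231 to 0.310 for differently numbered ones. In macrophage/monocyte-like cells they correlated at 0.148, -0.104 and 0.123, beside -0.187 to 0.0978. With 3 libraries per group, these values cannot show whether the numbers pair samples. With the replicate block Arg1 was -1.37 (whole) and -1.89 (macrophage/monocyte-like), with 0 genes called in both. No paired analysis was possible because of 1 PBS library for neutrophil-like cells. Arg2 in whole libraries was 3.57 with DESeq2, past its threshold. Nos2 in neutrophil-like cells was 1.80 (resolution 2, with 2 libraries) and 1.38 (marker gate) over macrophage/monocyte-like cells. It was 1.53 (RLE), 1.82 (100 genes) and 2.53 (marker gate) over non-myeloid cells. Each of these fold changes was past the threshold. In macrophage/monocyte-like over non-myeloid cells Nos2 gave -0.13 to 1.24 with 1 library left out. Genes called between FVIO-MHT and PBS numbered 134 (DESeq2) and 2 (no filter) in whole libraries, 2 (DESeq2), 23 (no filter) and 0 to 2 (1 library left out) in macrophage/monocyte-like cells, and 1 (DESeq2, RLE or no filter) in neutrophil-like cells. For neutrophil-like over macrophage/monocyte-like cells they numbered 389 (DESeq2), 1253 (100 genes, with all 6 libraries) and 224 to 508 (1 library left out), beside 696. For macrophage/monocyte-like over non-myeloid cells they numbered 1723 (400 genes), beside 2798. For neutrophil-like over non-myeloid cells they numbered 1804 (RLE), 597 (no filter), 3036 (100 genes) and 1569 (marker gate), beside 942. Mean Arg1 in neutrophil-like cells was 43.6 CPM with the marker gate, against 6.24 CPM. Arg2 in non-myeloid cells was 9.34 CPM with the gate, against 7.33 CPM. After thinning, 14.2% of neutrophil-like and 0.151% of non-myeloid cells had an Arg2 UMI, against 21.9% and 0.915%. At 400 genes, 6.995% of macrophage/monocyte-like cells had both arginases, 3.37% had Arg1 with Nos2, and 0.0% of neutrophil-like cells had both arginases. The 400-gene minimum in neutrophil-like comparisons, leaving out a library in neutrophil-like cells between FVIO-MHT and PBS or over non-myeloid cells, and cluster 3 alone were not run, since too few libraries remained. Shallow cells limit what a missing UMI shows.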
